A study of Mus musculus with 24 samples.

Results

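Messages for matrix and membrane proteins made up a larger part of the RNA in the libraries labelled nucleoplasm than in whole-cell RNA of naive mouse embryonic stem cells, and messages for replication histones a smaller part. The comparison set 3 nucleoplasm libraries against 3 total RNA libraries across genes. Genes were taken if their mean over the 12 libraries of the naive cells was at least 1 FPKM (fragments scaled to transcript length and library size), which kept 12592 of 29759 genes. The series holds 24 libraries in 8 groups of 3. They are 2 states of the E14 embryonic stem cell line, each split into nucleoplasm, chromatin and cytoplasm fractions and also sequenced as total RNA.

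The naive cells (nESC), in nucleoplasm and in total RNA, were cultured in N2B27 medium with the MEK inhibitor PD0325901, the GSK3 inhibitor CHIR99021 and LIF. The epiblast-like cells (EpiLC), which served here only as a second state, again in nucleoplasm and in total RNA, were taken on day 3 of culture with 12 ng/ml bFGF and 20 ng/ml activin A. No group carries a transgene or deletion in the labels, and all came from 1 cell line. The labels do not say whether the 3 libraries of a group are separate cultures, and p-values therefore cover only the spread between these libraries, which may be technical. FPKM gives a gene's part of a library and not the amount of RNA in a fraction. More RNA of a gene in a fraction and less of other RNA there cannot be told apart, nor can fewer cells of a kind and less RNA per cell.

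After synthesis on the chromosomes, most messages are spliced, released into the nucleoplasm and exported through nuclear pores. Histone messages of S phase end in a stem-loop in place of a poly(A) tail. Messages for secreted and membrane proteins are translated on the endoplasmic reticulum, whose membrane is continuous with the outer membrane of the nucleus, and many of these proteins start with a hydrophobic signal sequence. Messages of the mitochondrial genome are made and translated inside mitochondria.

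The labels were checked against marker genes. All 8 markers of naive cells were at 1 FPKM or more in the nucleoplasm and in the total libraries, among them Pou5f1, Nanog and Sox2. In EpiLC 6 of the 8 were in nucleoplasm and 6 in total RNA, so this count alone does not separate the states. The 4 formative epiblast markers summed to 26.0 to 27.5 FPKM in nESC nucleoplasm and 25.9 to 26.4 FPKM in nESC total RNA. In EpiLC they summed to 1247 to 1279 and 928 to 968 FPKM. Otx2 and Dnmt3b were at 1 FPKM or more in nESC, while Fgf5 and Pou3f1 were near 0. Of the 7 primitive endoderm markers none reached 1 FPKM in all libraries of either group, with sums of 0.866 to 1.45 FPKM in nucleoplasm and 0.67 to 1.70 FPKM in total RNA. The 6 fibroblast or feeder markers summed to 0.545 to 1.92 FPKM in nucleoplasm and in total libraries to 0.425 to 7.95 FPKM, and Lum was at or near 0 throughout. T (Brachyury), a mesoderm gene, and Nes were the only genes of the mesoderm and neural set at 1 FPKM or more in all 3 total libraries. Cdx2, a trophectoderm gene, was near 0 in nucleoplasm and above 1 FPKM in each total library. In the same set Eomes had 0.971 to 1.04 FPKM in nucleoplasm and 0.455 to 0.540 FPKM in total RNA. Krt7 had 0.844 to 0.919 FPKM in nucleoplasm and 0.215 to 0.330 FPKM in total RNA. Both thus went the other way from Cdx2, and Gata3 and Elf5 were near 0 in all of these libraries.

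In nESC nucleoplasm over total RNA, 1877 genes (14.9% of those tested) were called higher or lower, at a fold of at least 2 and a Benjamini-Hochberg adjusted p under 0.05 from limma over all genes tested. Of these, 1128 (8.96%) were higher and 749 (5.95%) were lower. At least 4-fold higher were 101 genes, and at least 4-fold lower were 27. The 2 groups of 3 did not overlap for 9996 genes (79.4%). Scaling every library to one sum moved the median log2 fold of all genes to 0.22 and the calls to 1958 higher and 284 lower, so the balance of directions rests on the authors' scaling. In the authors' scaling 60.1% of calls were higher, under one sum 87.3%.

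Markers of the fraction did not all go with its name. In a list of nuclear noncoding RNAs, 2 of the 16 tested members (12.5%) were higher in nucleoplasm and 3 were lower, with a median log2 fold of -0.35, against -0.06 for all genes tested. Under one sum 3 were higher and 1 was lower (median -0.16), and Malat1 counts among the members not called because 1 nucleoplasm library is listed at 0. The same list had a median of 2.01 in chromatin over total, a comparison that shares the total libraries. Its lowest member in nucleoplasm over total, Gm26917 (-3.16), was listed at 0 in the chromatin libraries. The mitochondrial genome took 3.75% to 4.27% of the summed FPKM in nucleoplasm, against 1.62% to 1.79% in total RNA. The part of mitochondria or endoplasmic reticulum carried with the fraction in the results below was not tested, and nucleoplasm below means the libraries with that label.

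**Figure D1:**
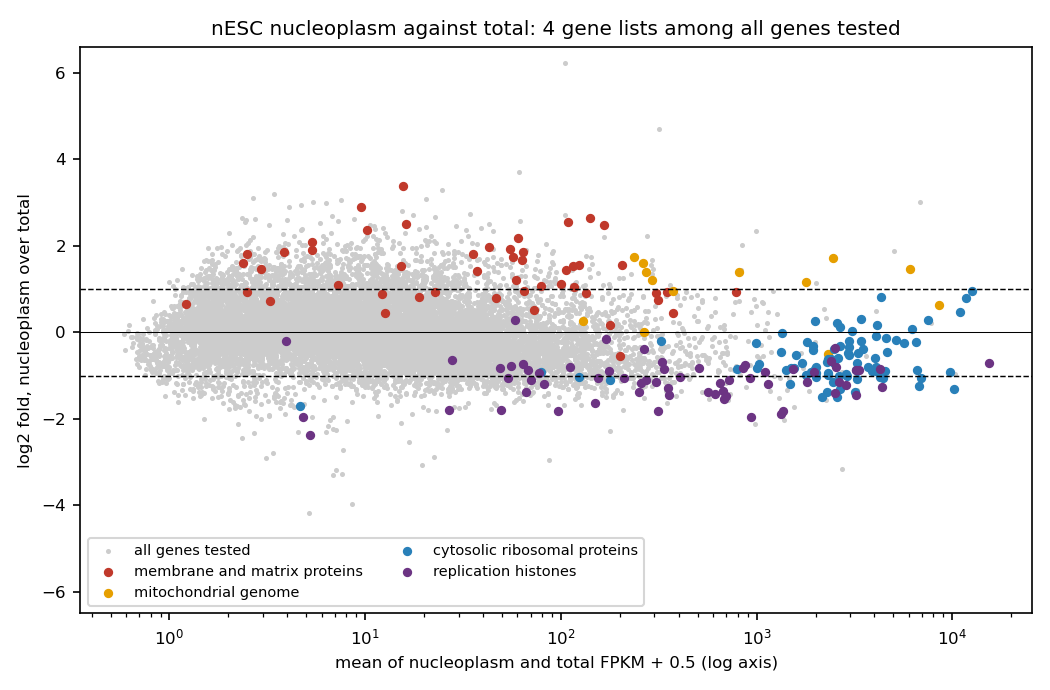
Each point is a gene; the horizontal axis is its mean FPKM over nESC nucleoplasm and total RNA plus 0.5 (log axis), the vertical axis its log2 fold of nucleoplasm over total, and dashed lines mark a fold of 2. Membrane and matrix genes (median 1.43) and the mitochondrial genome (median 1.21) lie above the mass of genes, and ribosomal protein genes (median -0.72) and replication histones (median -1.10) mostly below it.

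Matrix and membrane genes had the highest median of all lists, except after correction for exonic length and GC, where the mitochondrial genome was higher (1.75 against 1.25). Of 49 tested members 31 (63.3%) were higher in nucleoplasm and none was lower, with a median log2 fold of 1.43, and under one sum the median was 1.73. Hspg2 encodes perlecan, the heparan sulfate proteoglycan of basement membranes. It had 27.9, 28.4 and 27.8 FPKM in nucleoplasm, against 2.13, 1.96 and 2.61 FPKM in total RNA. Its log2 fold was 3.39 (SE 0.18, adjusted p = 2.8e-08, limma). Nid1 and Nid2 encode the nidogens, which link laminin and collagen IV in basement membranes. Nid1 had 239.9, 243.2 and 246.1 FPKM in nucleoplasm, against 35.3, 38.6 and 42.0 FPKM in total RNA, a log2 fold of 2.64 (SE 0.10, adjusted p = 3.7e-09). Nid2 followed with 182.1 to 188.0 FPKM in nucleoplasm and 29.3 to 33.5 FPKM in total RNA. For all 3 genes every nucleoplasm library lay above all 9 other nESC libraries, chromatin and cytoplasm included. The cytoplasm means were 5.92 FPKM for Hspg2, 25.8 FPKM for Nid1 and 27.3 FPKM for Nid2.

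Other genes named for their large folds encode surface proteins. Notch3, a receptor of the Notch family, had 16.4, 17.1 and 15.4 FPKM in nucleoplasm, against 1.74, 1.68 and 1.86 FPKM in total RNA, a log2 fold of 2.89 (SE 0.10, adjusted p = 3.7e-09). Ptprf and Ptprs, both receptor-type tyrosine phosphatases, rose by log2 folds of 3.29 (SE 0.17) and 2.71 (SE 0.12), to means of 44.2 ± 2.3 and 29.9 ± 1.2 FPKM in nucleoplasm, against 4.06 ± 0.35 and 4.16 ± 0.54 FPKM in total RNA (SD, n = 3; adjusted p from limma 2.2e-08 and 9.9e-09). Celsr1, a cadherin of planar cell polarity, had 12.5 to 13.2 FPKM in nucleoplasm and 1.06 to 1.21 FPKM in total RNA. For Notch3, Ptprf, Ptprs and Celsr1 chromatin and cytoplasm were also above total RNA, so the rise was not particular to nucleoplasm. Log2 folds over total were 1.52 in chromatin and 1.76 in cytoplasm for Notch3, and 1.97 and 1.98 for Ptprf. They were 1.73 and 1.64 for Ptprs, and 2.64 and 1.59 for Celsr1. Nucleoplasm was still the highest fraction for each of them. The member of the matrix and membrane list with the lowest fold was the transferrin receptor gene Tfrc, at 156.3 to 170.5 FPKM in nucleoplasm and 230.5 to 252.7 FPKM in total RNA; its log2 fold of -0.56 did not reach a fold of 2.

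Among genes chosen for a large fold or gap, several encode lysosomal or secreted proteins; no list of such genes was tested. Grn, which encodes progranulin, had 188.3, 191.9 and 167.1 FPKM in nucleoplasm, against 27.0, 25.9 and 29.9 FPKM in total RNA (log2 fold 2.70, SE 0.15, adjusted p = 3.5e-08). Psap encodes the precursor of the saposins, which help lysosomal enzymes break down sphingolipids. It had 453.9, 465.1 and 442.6 FPKM in nucleoplasm, against 96.7, 92.5 and 100.1 FPKM in total RNA, a log2 fold of 2.23 (SE 0.13). Gaa (acid alpha-glucosidase), Lgmn (legumain), Scarb2 (a lysosomal membrane protein) and Cd68 were also higher, with log2 folds of 2.51, 1.71, 1.69 and 2.73. Igf2r, the receptor that carries enzymes to lysosomes, had a log2 fold of 1.92 (SE 0.15). Among the 15 genes whose lowest nucleoplasm library stood farthest above the 9 other libraries, Psap, Gaa, Lgmn and Scarb2 are lysosomal, and Gpc3, Dkk3, Pros1, Trf and Cdh3 encode secreted or surface proteins. Chaperones and translocon parts of the endoplasmic reticulum had smaller folds. Hyou1 (1.16), Rpn2 (1.06) and Ddost (1.02) of 45 tested passed, with a list median of 0.24; under one sum 11 passed, with a median of 0.54. After centring each library, Ddost (0.95) and Rpn2 (0.99) no longer reached a fold of 2, and after correction for exonic length and GC Hyou1 (0.85) and Rpn2 (0.95) did not.

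**Figure D2:**
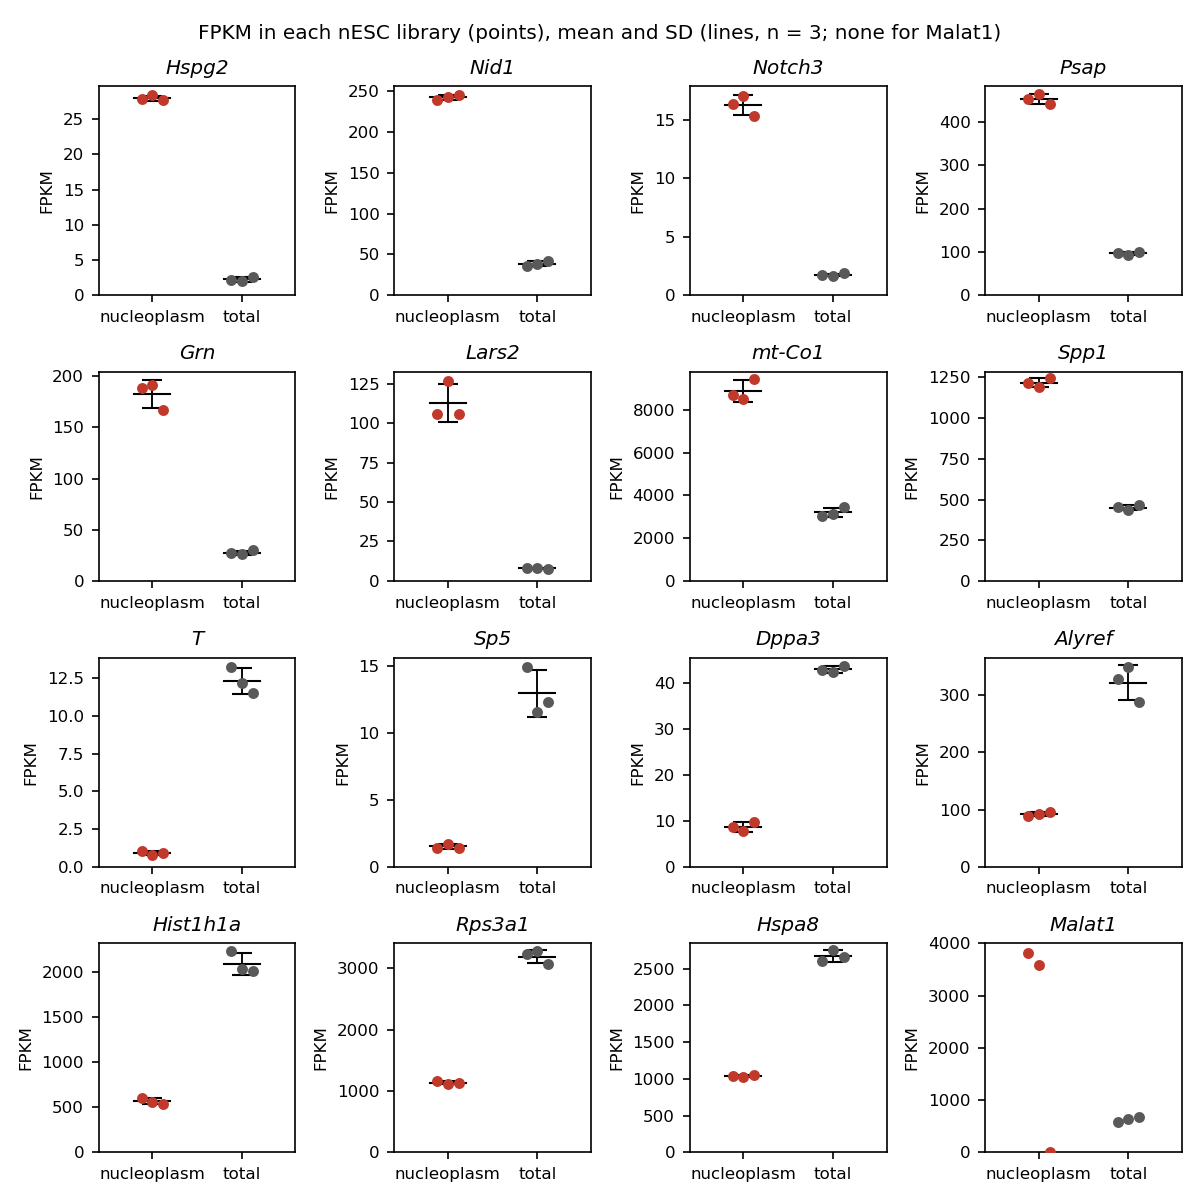
FPKM in each nESC library for 16 genes named here, with nucleoplasm on the left and total RNA on the right of each panel; points are libraries, long bars the mean and error bars the SD (n = 3 per group, axes start at 0). In all panels but Malat1 the groups do not overlap: nucleoplasm is higher in the first 8 genes and lower in the next 7, and for Malat1 nucleoplasm replicate 3 is listed at 0.

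The start of the coding sequence shows what many of these proteins share. The first 35 codons of a gene's longest complete coding transcript (GENCODE M21, GRCm38) are printed here, with the 11 codons of highest mean Kyte-Doolittle hydropathy in capitals. These 4 genes encode proteins with a stretch of at least 2.0 on this scale, the cut used for an N-terminal hydrophobic stretch.
Hspg2: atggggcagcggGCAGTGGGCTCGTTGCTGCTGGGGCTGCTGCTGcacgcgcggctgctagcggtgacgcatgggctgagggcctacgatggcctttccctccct
Nid1: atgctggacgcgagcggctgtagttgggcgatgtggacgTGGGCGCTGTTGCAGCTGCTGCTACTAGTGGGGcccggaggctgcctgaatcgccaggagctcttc
Nid2: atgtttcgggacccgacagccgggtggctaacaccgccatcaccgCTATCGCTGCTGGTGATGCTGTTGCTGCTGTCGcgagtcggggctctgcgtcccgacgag
Psap: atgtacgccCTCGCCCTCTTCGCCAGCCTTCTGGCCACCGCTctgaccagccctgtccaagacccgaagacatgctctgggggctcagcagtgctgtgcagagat
The peak values were 2.47 for Hspg2 (chr4:137468769-137570630, plus strand), 2.18 for Nid1 (chr13:13437551-13512269, plus strand), 2.83 for Nid2 (chr14:19751265-19811787, plus strand) and 2.16 for Psap (chr10:60277627-60302597, plus strand).

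The cut is not a perfect sorter, and 4 further genes are shown for that reason. Grn (chr11:102430315-102437048, plus strand), higher in nucleoplasm, falls just under it at 1.85. Tcp1 (chr17:12915701-12925067, plus strand) encodes a cytosolic chaperonin subunit, was lower in nucleoplasm, and falls just over it at 2.02. Rps3a1 (chr3:86137940-86142702, minus strand) and Alyref (chr11:120592121-120598365, minus strand), both lower in nucleoplasm, have peaks of -0.45 and 0.47.
Grn: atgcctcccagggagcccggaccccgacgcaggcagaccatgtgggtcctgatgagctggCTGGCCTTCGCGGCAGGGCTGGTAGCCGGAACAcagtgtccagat
Tcp1: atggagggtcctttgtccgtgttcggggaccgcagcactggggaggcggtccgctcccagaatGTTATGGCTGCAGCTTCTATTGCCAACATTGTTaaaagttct
Rps3a1: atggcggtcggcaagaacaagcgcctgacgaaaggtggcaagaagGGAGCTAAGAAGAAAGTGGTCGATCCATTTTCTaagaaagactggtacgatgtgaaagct
Alyref: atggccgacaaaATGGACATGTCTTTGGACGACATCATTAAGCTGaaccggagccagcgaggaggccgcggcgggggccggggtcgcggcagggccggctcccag

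Across protein-coding genes the share of calls differed with this feature. Of 1605 genes with an N-terminal stretch, 420 (26.2%) were higher in nucleoplasm and 27 (1.68%) lower, with a median log2 fold of 0.46. Of 7691 genes with neither an N-terminal nor an internal stretch, 375 (4.88%) were higher and 525 (6.83%) lower, with a median of -0.17. Genes with an N-terminal and 1 internal stretch (19 residues at a mean of at least 1.6) had the highest share, 163 of 465 (35.1%) higher and 4 lower. Genes with 2 or more internal stretches and none at the N-terminus had 145 of 882 (16.4%) higher and 12 lower. Exonic length also went with the fold, so both are given together. In the shortest tertile (up to 3265 bp) the median was 0.30 with an N-terminal stretch and -0.36 with neither. In the longest tertile (over 5813 bp) it was 0.71 and 0.09. The EpiLC libraries, a separate table, had medians of 0.38 for genes with an N-terminal stretch and -0.03 for genes with neither. These are descriptions with no test, since genes are not replicates.

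**Figure D3:**
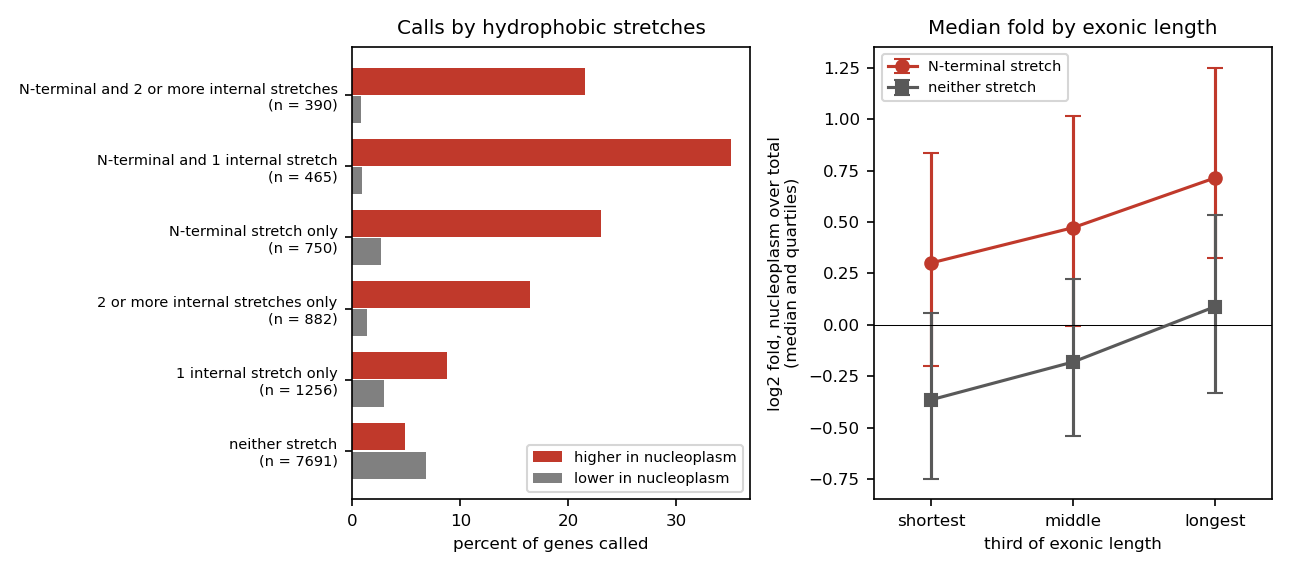
Left, percent of protein-coding genes called higher (red) and lower (grey) in nESC nucleoplasm than in total RNA by hydrophobic stretches of the encoded protein; right, median log2 fold with quartile bars by tertile of exonic length. The share of genes called higher is 35.1% with an N-terminal and 1 internal stretch and 4.88% with neither, and the median of genes with an N-terminal stretch is above that of genes with neither in each tertile.

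Longer genes had higher folds. Median log2 folds by quintile of gene length were -0.29, -0.18, -0.10, -0.01 and 0.26 from shortest to longest. Across 12562 genes Spearman's rho of the fold was 0.26 with gene length, 0.26 with exonic length, 0.27 with exon number and 0.15 with GC content. With protein length it was 0.37 across 11434 genes. Of 505 genes with 1 exon, 25 (4.95%) were higher and 107 (21.2%) were lower, against 8.96% and 5.95% of all genes tested. Replication histone genes such as Hist1h1a and Hist1h4j have 1 exon, and their part in these counts was not separated. After a correction for exonic length and GC the matrix and membrane list kept a median of 1.25.

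Most messages of the mitochondrial genome were higher in nucleoplasm, 8 of 13 with none lower (median 1.21, and 1.52 under one sum). The gene mt-Co1 encodes subunit I of cytochrome oxidase. It had 8706, 8514 and 9461 FPKM in nucleoplasm, against 3038, 3118 and 3465 FPKM in total RNA (log2 fold 1.47, SE 0.20, adjusted p = 3.2e-05, limma). Members did not move alike. mt-Cytb (1.74), mt-Atp8 (1.72) and mt-Nd4l (1.61) led the list, while mt-Nd5 was at 242.8 to 301.0 FPKM in nucleoplasm and 257.1 to 279.2 FPKM in total RNA, and mt-Nd3 had a log2 fold of -0.49. Nuclear genes of the respiratory chain did not follow, with 2 of 82 higher, 4 lower and a median of -0.09; under one sum 7 were higher and 1 lower (median 0.21). The 2 were Cox6a1, at 1355 ± 95 FPKM in nucleoplasm and 331.2 ± 21.8 FPKM in total RNA (SD, n = 3), and Cox8b, which was listed at 0 in 2 of the 3 total libraries. Lars2, the nuclear gene of the mitochondrial leucyl-tRNA synthetase, had 105.9, 126.5 and 105.7 FPKM in nucleoplasm, against 8.36, 8.27 and 7.64 FPKM in total RNA. Lars2 means were 19.5 FPKM in chromatin and 7.23 FPKM in cytoplasm, and the origin of its reads was not tested. Its log2 fold of 3.72 (SE 0.16, adjusted p = 9.5e-09) was far above those of the aminoacyl-tRNA synthetase list, which does not hold it. Of the 20 genes of that list Vars (1.08) alone was called, and the list median was -0.24, and 0.06 under one sum.

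Noncoding RNAs that stay in the nucleus divided. Meg3, the maternally expressed RNA of an imprinted cluster, had 166.3, 187.2 and 157.4 FPKM in nucleoplasm, against 57.6, 54.5 and 65.0 FPKM in total RNA (log2 fold 1.52, SE 0.09, adjusted p = 7.5e-08). Firre, an X-linked RNA, rose by 1.18 (SE 0.10), and was at 0.89 after correction for exonic length and GC. Malat1, a major RNA of nuclear speckles, had 3810 and 3590 FPKM in 2 nucleoplasm libraries, was listed at 0 in nucleoplasm replicate 3, and had 579.2, 630.0 and 685.8 FPKM in total RNA. Without that library its log2 fold was 2.55, so no call is made on it. Neat1, the scaffold of paraspeckles, averaged 25.4 ± 1.7 FPKM in nucleoplasm and 25.8 ± 2.0 FPKM in total RNA (SD, n = 3), with 105.4 FPKM on average in chromatin. Xist and Kcnq1ot1, which coat chromatin, were at 0.271 to 0.351 and 0.406 to 0.455 FPKM in nucleoplasm, against 0.527 to 0.620 and 0.914 to 1.04 FPKM in total RNA; neither reached a fold of 2 on the scale with the pseudocount of 0.5, though the ratio of FPKM was above 2 for Kcnq1ot1, which was called with a pseudocount of 0.1 (-1.01).

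Other noncoding transcripts were lower in nucleoplasm. Mir17hg, the host transcript of a microRNA cluster, had 3.54, 3.48 and 3.82 FPKM in nucleoplasm, against 33.8, 36.2 and 32.8 FPKM in total RNA (log2 fold -3.08, SE 0.15, adjusted p = 1.9e-08). Its chromatin mean was 152.7 FPKM and its cytoplasm mean 0.724 FPKM. Of 16 tested RNAs in a list of snoRNA hosts and spliced noncoding RNAs, 6 were lower and none higher (median -0.53; 3 lower under one sum), among them Snhg3 (-1.30) and Snhg20 (-1.24), the second of which was not called under one sum (-0.94). Gm26917, annotated as a long intergenic noncoding RNA, had 548.5, 597.6 and 475.4 FPKM in nucleoplasm and 6365, 4445 and 3968 FPKM in total RNA. It was listed at 0 in the chromatin libraries, and its transcript has a GC content of 69.1%. The origin of its reads was not tested. Genes with clone-type names counted 80 higher and 146 lower of 1204, and under one sum 121 higher and 97 lower.

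Replication histone genes were lower for the larger part. Of 65 tested genes 38 (58.5%) were lower and none higher, with a median log2 fold of -1.10; under one sum 20 were lower and the median was -0.80. Hist1h1a encodes a linker histone. It had 605.3, 564.0 and 537.0 FPKM in nucleoplasm, against 2235, 2033 and 2015 FPKM in total RNA (log2 fold -1.88, SE 0.08, adjusted p = 9.9e-09). Hist1h4j, a histone H4 gene, had 365.7, 396.8 and 379.0 FPKM in nucleoplasm, against 1796, 1357 and 1339 FPKM in total RNA. The cytoplasm means of the 2 genes were 4252 and 5953 FPKM. The genes are near-identical copies, so single values are uncertain where the counting could split reads between them.

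A 16-base stem-loop motif, GGNNCTTTTCAGNNCC read on the transcript strand in GENCODE M21 transcripts, was found in 33 of the 65 histone genes (50.8%) and in 11 of 12527 other tested genes (0.0878%). It came in 3 forms, and 1 gene of each is shown, with the loop in capitals.
Hist1h2ad: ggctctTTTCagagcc
Hist4h4: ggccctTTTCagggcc
Hist1h4j: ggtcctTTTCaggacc
Histone genes with the motif had a median log2 fold of -1.05 and those without a match -1.13, and 19 of 33 and 19 of 32 were lower. No match says only that these letters are not in the annotated transcript.

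Lists of translation genes had medians below that of all genes tested. Of 85 cytosolic ribosomal protein genes 19 (22.4%) were lower and none higher (median -0.72; 7 lower and a median of -0.42 under one sum). Rps3a1, a protein of the small ribosomal subunit, had 1157, 1106 and 1138 FPKM in nucleoplasm, against 3223, 3275 and 3068 FPKM in total RNA (log2 fold -1.49, SE 0.08, adjusted p = 2.0e-08, limma). Rpsa (-1.48) and Rpl12 (-1.39) were close to it. Many of these genes have near-identical pseudogene copies, so reads may be split between them. Of 63 genes for initiation and elongation factors 12 were lower, with Eif4e (-1.39), the cap-binding protein, in front, and Eif4g3 was higher at 2.06; under one sum 3 were higher and 2 lower. Mitochondrial ribosomal proteins had 8 of 78 lower and none higher (median -0.53), and 2 lower under one sum (median -0.23). Of 36 proteasome genes 1 lay above 0 and the median was -0.82, but 4 were called lower, and none was under one sum (median -0.52). Ribosome biogenesis genes had 5 of 36 lower, and 1 under one sum, among them Rrp9 (-1.30) and Nip7 (-1.18, and -0.88 under one sum, where it was not called).

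Cytosolic chaperones gave 8 lower genes of 27 and 1 higher, and under one sum 3 lower and 1 higher. Hspa8, the constitutive Hsc70, had 1040, 1023 and 1049 FPKM in nucleoplasm, against 2601, 2759 and 2656 FPKM in total RNA (log2 fold -1.36, SE 0.07, adjusted p = 1.4e-08). Cct6a (-1.43) and Tcp1 (-1.39), subunits of the chaperonin that folds actin and tubulin, were lower as well. Bag3, a co-chaperone induced by stress, was the exception at 1.38. For Hspa8, Cct6a and Tcp1 the chromatin and cytoplasm means were also below total RNA. They were 1090.5 and 1171 FPKM for Hspa8, 193.4 and 273.8 FPKM for Cct6a, and 203.2 and 427.5 FPKM for Tcp1. The total RNA means were 2672, 519.9 and 764.2 FPKM. Of 17 glycolysis genes Tpi1 (-1.48) and Pkm (-1.05) were lower and none was higher; under one sum 1 was lower and 1 higher. In the cytoskeleton list Vim (-1.34), Tpm4 and Stmn1 were lower, and Actn1 (1.86) and Dst (1.43) were among the 4 that were higher; under one sum 5 were higher and 1 lower. Under one sum Pkm, Tpm4 and Stmn1 were between -0.77 and -0.75 and no longer called.

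**Figure D4:**
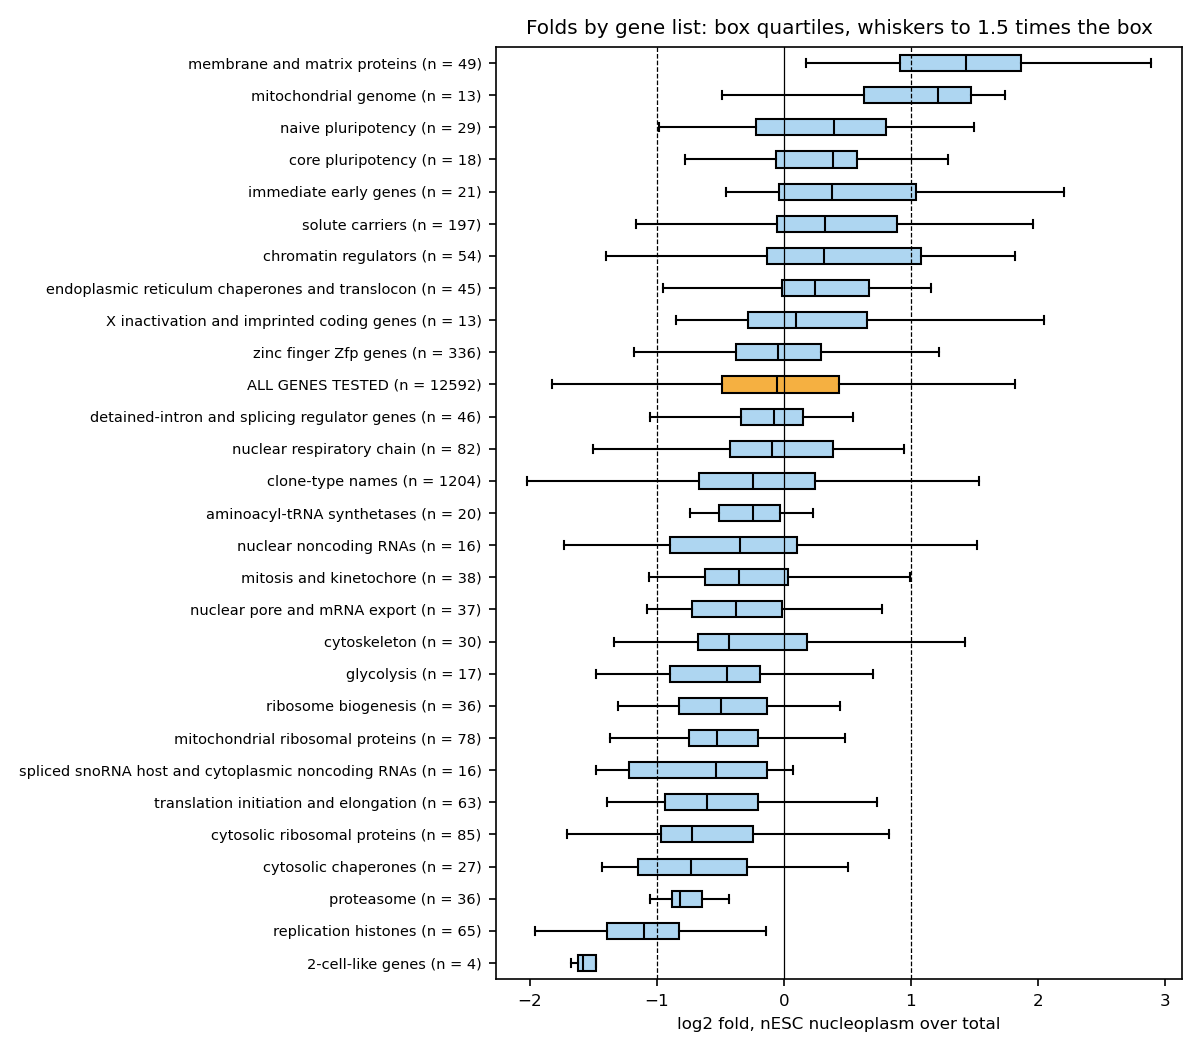
Log2 folds of nESC nucleoplasm over total RNA for each gene list with at least 3 tested members (horizontal axis), sorted by median, with all genes tested in orange; boxes are quartiles, lines in them medians, and whiskers reach the farthest gene within 1.5 times the box length. Membrane and matrix proteins have the highest median at 1.43 and the 4 2-cell-like genes the lowest at -1.58.

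Few export factors and splicing regulators were called, at shares near or below those of all genes tested (8.96% higher and 5.95% lower). Of 37 nuclear pore and export genes 2 (5.41%) were higher and 3 (8.11%) lower. Of 46 splicing genes 2 (4.35%) were higher and 2 (4.35%) lower. Alyref, which couples splicing to export, had 89.3, 91.6 and 95.7 FPKM in nucleoplasm, against 328.2, 349.4 and 289.0 FPKM in total RNA (log2 fold -1.80, SE 0.09, adjusted p = 1.9e-08). Nxt1, a partner of the main export receptor, was at -1.08. By contrast Nup210 (1.35) and Pom121 (1.51), membrane proteins of the nuclear pore, were higher, and 3 of 37 in the list were lower in all; under one sum 4 were higher and 1 lower. Among splicing genes Srrm2 (1.76) and Srrm1 (1.03) were higher, and Srsf3 (-1.36) and U2af1 (-1.05) lower, with a median of -0.07 over 46 genes and of 0.22 under one sum. Srrm1 was under a fold of 2 without nucleoplasm replicate 3 (0.95), total replicate 1 (0.975) or total replicate 2 (0.996), and under one sum U2af1 (-0.75) and Nxt1 (-0.78) were.

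Chromatin regulators leaned upward, with 15 of 54 (27.8%) higher and 1 lower (median 0.32). Tet1, an enzyme that oxidizes methylcytosine, had 38.3, 36.8 and 40.6 FPKM in nucleoplasm, against 10.2, 10.2 and 11.3 FPKM in total RNA (log2 fold 1.82, SE 0.24, adjusted p = 2.6e-05). The histone methyltransferase genes Kmt2a (1.82) and Kmt2b (1.59) and the acetyltransferase gene Crebbp (1.78) were higher too. For all 4 of these the chromatin mean was above the nucleoplasm mean. Cbx3, encoding a heterochromatin protein, was the gene that went the other way, at 106.0 to 117.4 FPKM in nucleoplasm and 285.8 to 303.4 FPKM in total RNA. After the correction for exonic length and GC the list median was 0.08, and Kmt2b (0.94) was under a fold of 2.

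More pluripotency genes were called higher than lower. Of 29 naive genes 5 (17.2%) were higher and 1 (3.45%) lower, with a median of 0.39. Under one sum 10 naive genes were higher and 1 lower. Of 18 core genes 3 (16.7%) were higher and 1 (5.56%) lower, also with a median of 0.39. Among all genes tested 8.96% were higher and 5.95% lower. Klf4 had 37.9, 38.2 and 34.5 FPKM in nucleoplasm, against 14.0, 11.7 and 12.7 FPKM in total RNA (log2 fold 1.49, SE 0.12, adjusted p = 4.8e-07); Klf2 and Tbx3, also transcription factors of the naive network, followed at 1.39 and 1.32. Spp1, the gene of the secreted protein osteopontin, had 1218, 1194 and 1245 FPKM in nucleoplasm, against 451.6, 436.8 and 463.6 FPKM in total RNA. Dppa3 (Stella), a maternal-effect gene, went the other way with 8.53, 7.71 and 9.76 FPKM in nucleoplasm, against 42.8, 42.2 and 43.7 FPKM in total RNA, a log2 fold of -2.25 (SE 0.14, adjusted p = 7.7e-08). Pou5f1 (-0.78), Zfp42 (-0.98) and Nanog (-0.14) were not called. Among core genes Sall1 (1.29), Sall4 (1.25) and Utf1 (1.03) were higher and Lin28a (-1.21) lower. Utf1 did not reach a fold of 2 without nucleoplasm replicate 1 (0.996) or total replicate 2 (0.92), and Lin28a did not under one sum (-0.92).

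Some of the largest negative folds were in transcription factor genes with low values in nucleoplasm. T had 1.05, 0.77 and 0.934 FPKM in nucleoplasm, against 13.3, 12.2 and 11.6 FPKM in total RNA (log2 fold -3.18, SE 0.20, adjusted p = 8.7e-08). Sp5, a target of Wnt signalling as T is, had 1.40, 1.72 and 1.43 FPKM in nucleoplasm, against 14.9, 11.6 and 12.3 FPKM in total RNA. Gbx2 was at 1.58 to 1.66 FPKM in nucleoplasm and 9.25 to 10.7 FPKM in total RNA. Nlrp12, not a transcription factor gene, fell to 4.37, 5.16 and 4.76 FPKM in nucleoplasm, against 48.6, 41.3 and 28.0 FPKM in total RNA. T, Sp5 and Nlrp12 had their highest mean in chromatin, which was 15.2 FPKM for T and 147.8 FPKM for Nlrp12. All 4 tested 2-cell-like genes were lower, including Zscan4c (-1.68) and Zscan4f (-1.56), which belong to a multigene family and whose reads may be shared between copies.

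Of 21 immediate early genes tested, 6 (28.6%) were higher and none lower (median 0.38). Among all genes tested 8.96% were higher and 5.95% lower. Fos and Jun were low in total RNA, with means of 0.782 and 0.459 FPKM. Fos had 8.03, 9.95 and 9.24 FPKM in nucleoplasm, against 0.318, 0.472 and 1.56 FPKM in total RNA (log2 fold 3.02, SE 0.26, adjusted p = 7.4e-07), with a chromatin mean of 46.9 FPKM. Jun followed at 2.20 (SE 0.12). Solute carriers, the membrane transporters, had 40 of 197 (20.3%) higher and 3 lower.

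Some large values rested on single libraries. Ece1 had 807.0, 627.7 and 339.4 FPKM in nucleoplasm, against 2.55, 47.7 and 66.7 FPKM in total RNA; its log2 fold of 4.70 (SE 1.54, adjusted p = 0.018) was no longer called without nucleoplasm replicate 1 (adjusted p = 0.051) or without total replicate 1 (adjusted p = 0.087). In all, 4 genes in nucleoplasm and 1 in total RNA were listed at 0 in 1 library where the other 2 had at least 5 FPKM.

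The 12592 genes were also placed against all 12 nESC libraries. All 3 nucleoplasm libraries were above the other 9 for 908 genes (7.21%) and below them for 820 (6.51%). 

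In EpiLC the same comparison called 617 genes higher (4.81%) and 496 lower (3.86%) of 12834. Of the nESC calls, 279 of the 1128 higher genes (24.7%) were also higher in EpiLC, which is 45.2% of the EpiLC higher calls. Of the 749 lower genes 108 (14.4%) were also lower, which is 21.8% of the EpiLC lower calls. Only 989 of the 1128 and 683 of the 749 were tested in EpiLC, and the others count as not shared. Across 11704 genes tested in both, Pearson's r of the folds was 0.51 as a description. Matrix and membrane genes were higher in EpiLC in 38 of 50 cases (median 1.31), with Hspg2 at 2.17 (SE 0.20) and Nid2 at 2.19 (SE 0.20). The mitochondrial genome was higher in 10 of 13 (median 1.36). EpiLC nucleoplasm replicate 3 stood apart there, with 10.5% of its summed FPKM from these genes, against 5.44% and 5.48% in the other two. Histones were lower in 7 of 66 (median -0.45), ribosomal proteins in 2 of 85, and proteasome genes in none of 38.

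The difference of the fold between states was tested as an interaction over all 24 libraries. It called 1596 of 13722 genes (11.6%), 807 with a higher fold in nESC and 789 with a lower one; under one sum these were 1619 and 237. Cytosolic chaperones had a lower fold in nESC in 14 of 29, aminoacyl-tRNA synthetases in 10 of 20, the proteasome in 13 of 38 and glycolysis in 8 of 17. Of 66 histone genes 10 differed, all with a lower fold in nESC. The matrix and membrane list was even, 7 higher and 5 lower of 50. Over all genes tested, 789 of 13722 had a lower fold in nESC, and 237 had one under one sum. Counts per list are given only for centred libraries, so their dependence on the scaling is not shown.

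Fos had the largest difference of the genes named. In nESC its log2 fold was 2.91 on the centred scale, and in EpiLC it was -3.64, from 1.85, 2.39 and 3.84 FPKM in EpiLC nucleoplasm against 38.9, 33.5 and 36.8 FPKM in EpiLC total RNA. The difference was 6.55 (SE 0.35, adjusted p = 1.9e-10, limma). Immediate early genes as a list had 9 of 24 with a higher fold in nESC and none with a lower one, Fosb (4.14) and Egr1 (3.23) among them. Both were at 0.366 FPKM or less in every nESC nucleoplasm and total library, so their nESC folds (-0.14 and -0.16) rest on few fragments. Their EpiLC folds were -4.29 and -3.40. EpiLC nucleoplasm had 0.450 to 0.737 FPKM of Fosb, against 18.9 to 20.2 FPKM in EpiLC total RNA. Lars2 differed by 3.84 (SE 0.20), with 13.3 to 15.3 FPKM in EpiLC nucleoplasm and 13.6 to 17.8 FPKM in EpiLC total RNA.

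In the other direction Trh, the thyrotropin-releasing hormone gene, had 159.2, 160.8 and 157.7 FPKM in nESC nucleoplasm, against 419.6, 381.6 and 340.7 FPKM in nESC total RNA. In EpiLC it had 268.2, 289.4 and 141.5 FPKM in nucleoplasm, against 21.1, 24.6 and 24.3 FPKM in total RNA. The difference of its folds was -4.52 (SE 0.41, adjusted p = 5.2e-08). Notum, which encodes a secreted inhibitor of Wnt proteins, had 30.2 to 32.9 FPKM in nESC nucleoplasm and 49.0 to 53.4 FPKM in nESC total RNA, but 3.97 to 5.23 FPKM in EpiLC nucleoplasm and 0.67 to 0.80 FPKM in EpiLC total RNA. Dppa3 (-2.65) and Fbxo15 (-2.57), both genes of naive cells, also had the lower fold in nESC.

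**Figure D5:**
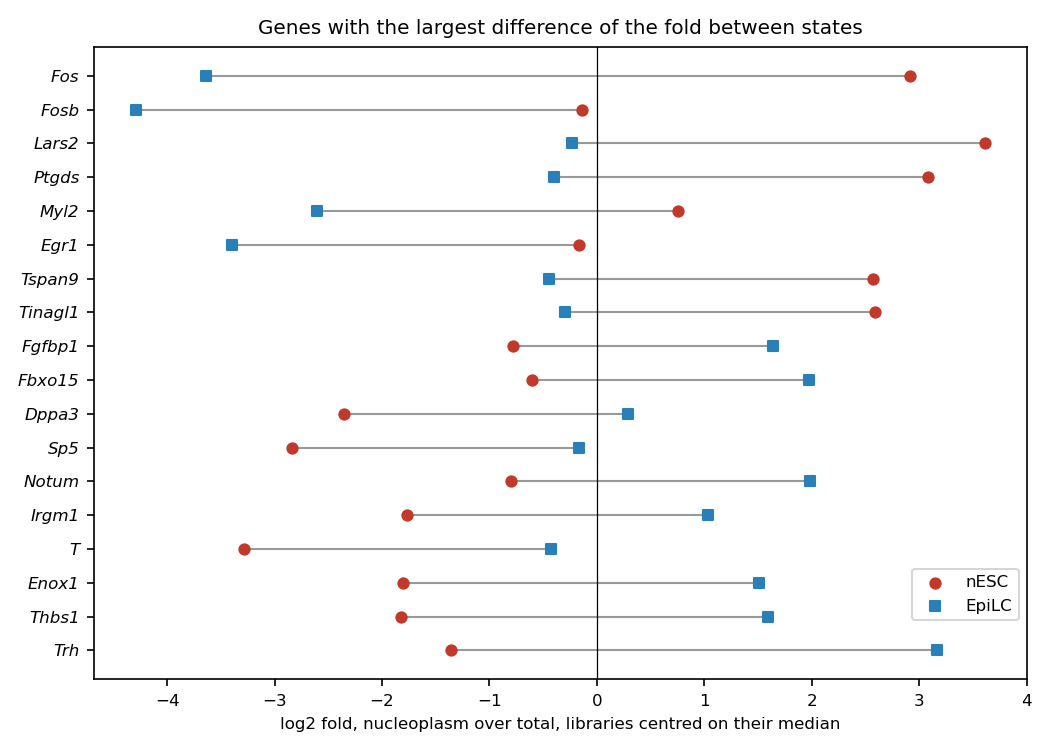
Log2 fold of nucleoplasm over total RNA (horizontal axis, libraries centred on their median) in nESC (red circles) and EpiLC (blue squares) for 18 genes among those with the largest differences between states; H19 and Actc1, listed at 0 in all nESC total libraries, are not drawn. Fos has the largest gap, 2.91 in nESC and -3.64 in EpiLC, and Trh the largest gap the other way, -1.36 and 3.17.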

How the data were processed

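RNA of nuclear and cytoplasmic fractions and of whole cells was isolated in TRIzol; rRNA was removed (Ribo-zero gold) and stranded libraries were built with a TruSeq Total RNA kit, per the labels' protocols. The authors deposited FPKM values; the submitters' processing notes name TopHat2, Cuffnorm and the build mm10 (GRCm38). Not given in the sources used here are versions, annotation, library scaling and use of strand. The 2 cell states have separate tables, normalized separately. Steps between low values gave the depth: 1 FPKM in a 2 kb transcript rests on 75.6 to 93.3 fragments in nESC nucleoplasm and 71.1 to 78.5 in nESC total RNA, with 85.9% to 89.7% of low values within 0.1 of a whole step. Replicates correlated at 0.992 or more across genes, and no library pair shared an equal value above 1 FPKM.

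Genes whose mean reached 1 FPKM were fitted on log2(FPKM + 0.5) by limma (version 3.58.1, R 4.3.3; two-sided, eBayes with trend) over the 12 libraries of a state; folds on this scale understate changes of low genes. The state difference was an interaction over 24 libraries centred on their medians. Data were simulated for the nESC comparison (12592 genes), and a gene counted as found at an adjusted p under 0.05 in the right direction. The fold of at least 2 that a call needs was not asked for. Of 200 genes changed by a log2 fold of 1, 176 were found, and of 200 changed by 2, 199 were. Unchanged genes under the same adjusted p numbered 8 each time. Of 29759 genes, 29586 matched a symbol and coordinates in GENCODE M21. Proteins were translated from its transcripts; internal stretches and the split by length were added after the data were seen. Genes were named by a rule: the 20 largest called folds in each direction with groups apart and a higher mean of at least 5 FPKM, without clone-type, pseudogene or small RNA names; up to 4 called members of each of 31 lists and called members against a list's majority; the markers; the 15 largest gaps of nucleoplasm above all other libraries; and the 10 largest state differences in each direction. The text prints part of these. Tfrc, mt-Nd3, mt-Nd5 and Hist4h4 were chosen outside it, after their values were seen. Members and lists were chosen with earlier results of these data known. 3 lists (structured noncoding RNAs, mitochondrial transfer RNAs, snoRNA and snRNA names) had no member among the genes tested.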

Additional observations from a re-analysis of the deposited data

Results flagged for a closer look

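The nucleoplasm over total RNA fold differed between nESC and EpiLC for 1596 genes by the interaction test, and 18 named genes stood out by that test (limma, adjusted p under 0.05). Higher in nESC were Fos (6.55), Fosb (4.14), Lars2 (3.84), Ptgds (3.48), Myl2 (3.36), Egr1 (3.23), Tspan9 (3.01) and Tinagl1 (2.89), as differences of log2 folds. Lower in nESC were Trh (-4.52), Thbs1 (-3.42), Enox1 (-3.32), T (-2.86), Irgm1 (-2.80), Notum (-2.78), Sp5 (-2.67), Dppa3 (-2.65), Fbxo15 (-2.57) and Fgfbp1 (-2.42). The size of the Thbs1 difference depended on nESC total RNA replicate 3, which had 6.16 FPKM against 0 and 1.21 in the other two, and without it the difference was -2.47, against -4.34 without replicate 1. Col1a1, a fibroblast marker, had 2.23 FPKM in that library and 0.0139 and 0.567 FPKM in the other two; its part in the result was not tested. T, Sp5, Ptgds and Tinagl1 were under 0.5 FPKM in all EpiLC nucleoplasm and total libraries, so their EpiLC folds rest on few fragments.

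Genes known from muscle or mesoderm varied between libraries of the same group. Myl2 had 1.83, 5.95 and 1.66 FPKM in nESC nucleoplasm and 1.52, 1.00 and 1.29 FPKM in nESC total RNA, against 0, 0.33 and 0.47 FPKM in EpiLC nucleoplasm and 0.88, 7.27 and 6.89 FPKM in EpiLC total RNA. Actc1 and H19 were listed at 0 in the 3 nESC total libraries and in nESC nucleoplasm replicates 1 and 3, and had 6.10 and 10.5 FPKM in nESC nucleoplasm replicate 2, so no fold is given for them. In EpiLC total RNA they had 0.32 and 0.89 FPKM in replicate 1, and 7.95 to 8.35 and 14.8 to 15.2 FPKM in replicates 2 and 3. The source of these values was not tested.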

How the results depend on the processing

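The count of 1877 genes stayed within 1.5 times of its value under every alternative run, from 1319 at a mean of at least 5 FPKM to 2332 with a pseudocount of 0.1, and leaving out 1 library gave 1808 to 1997 (higher 1090 to 1187, lower 718 to 810). Higher calls in nESC were 727 at a mean of at least 5 FPKM, 1958 under one sum and 2048 under one sum without the mitochondrial genome and Gm26917; lower calls were 284 and 261 under these sums. In EpiLC, calls were 713 at a mean of at least 5 FPKM, with 199 lower; lower calls were 792 with a pseudocount of 0.1 and 277 with 1, and leaving out 1 library gave 1052 to 1218 (higher 561 to 687, lower 473 to 531). State differences were 961 at a mean of at least 5 FPKM, with 357 lower; 503 higher with a pseudocount of 1; and 1619 higher and 237 lower under one sum. Leaving out 1 library gave 1524 to 1698 (higher 764 to 856, lower 744 to 842). Malat1 reversed to 2.55 with isolated zeros treated as missing; leaving out 1 library gave -3.90 (without nucleoplasm replicate 1) to 2.55 (without nucleoplasm replicate 3). The medians of aminoacyl-tRNA synthetases (0.058 and 0.086), splicing genes (0.22 and 0.25), Zfp genes (0.22 and 0.24) and nuclear respiratory chain genes (0.21 and 0.24) reversed under one sum, first with all genes and then without the mitochondrial genome and Gm26917. After the correction for exonic length and GC the medians of Zfp genes (0.04) and nuclear respiratory chain genes (0.14) were also above 0. Of 179 named genes, 29 lost their call under one sum and 29 after the correction for exonic length and GC; the cause was not tested. Same-numbered nucleoplasm and total libraries had correlations of deviations of -0.016, -0.133 and 0.004 in nESC. In EpiLC these were -0.129, 0.113 and 0.076. The labels do not say whether a number marks a shared culture, and these values cannot settle it. A replicate block gave 1877 calls in nESC, 1111 in EpiLC and 1597 state differences, and changed no call among named genes. Depth limits the genes near 1 FPKM most.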
